A study of Homo sapiens with 9 samples.

Results

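The comparison described here sets H1975 cells that received wild-type GRP78, F-78(WT), against H1975 cells that received the empty vector. It takes the 3 F-78(WT) and the 3 vector samples, 6 of the 9 samples of the series, as their labels name them, and 18653 of the 61544 genes listed had enough reads to be tested. H1975 is a human lung adenocarcinoma line. In all 9 samples endogenous GRP78 was first silenced for 24 h with si78, an siRNA directed at the 3′ end of the GRP78 transcript, and a plasmid was then given for 48 h. The vector cells received pcDNA3 without an insert and the F-78(WT) cells FLAG-tagged GRP78, which lacks the sequence that si78 targets, so the controls carry si78 as well. The remaining 3 samples received F-78(NLS Mut), the same protein with a mutated nuclear localization signal, and no cells spared si78 were analysed here. One cell line was transfected transiently, and the labels do not say whether the replicates are separate cultures, so p-values measure only the spread between these samples.

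GRP78 (also BiP), the product of HSPA5, is the main HSP70 chaperone of the endoplasmic reticulum (ER). It binds unfolded proteins with the help of DnaJ co-chaperones and nucleotide exchange factors, and in unstressed cells it also binds the sensors of the unfolded protein response (UPR), PERK, IRE1 and ATF6, and holds them inactive. When the sensors are freed, PERK slows translation and raises ATF4, which turns on CHOP (DDIT3), ATF3 and genes of amino acid transport, while ATF6 and the spliced form of XBP1 turn on ER chaperones and the degradation of misfolded proteins (ERAD).

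Among the called genes, HSPA5 itself had the largest change apart from its pseudogenes. Its level in CPM, reads relative to a TMM-scaled library total, was 359, 383 and 391 in the vector libraries and 5031, 5814 and 6145 in the F-78(WT) libraries. The groups lay far apart, with a log2 fold change of 3.91 (SE 0.06, adjusted p = 2.24e-28, edgeR's quasi-likelihood test). The reads do not separate the plasmid's transcript from the endogenous one, and in bulk RNA more expressing cells and more transcript per cell cannot be told apart. A pair of processed pseudogenes that can take up HSPA5 reads were called with it. HSPA5P1 was at 0.231, 0.0362 and 0.0740 CPM in vector and at 3.26, 3.93 and 3.62 CPM in F-78(WT), and ENSG00000250746 was listed at 0, 0.0362 and 0.0370 CPM and at 1.58, 1.81 and 3.28 CPM. They are not taken as separate genes of the response, although the counts of higher genes below include them.

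Of the tested genes, 40 were higher in F-78(WT) than in vector (0.214% of those tested) and 64 were lower (0.343%) at an adjusted p-value under 0.05. The changes were small: the median size on the log2 scale was 0.30 for the higher genes and 0.46 for the lower ones, and it reached 1 in 4 higher genes (HSPA5, its pseudogenes and SERPINB4) and 3 lower ones (SLC7A7, MICB and NEURL3). The values of the groups did not overlap in all 40 higher and in 58 of the 64 lower genes, against 13.1% of all tested genes. The lower genes with overlapping groups were HES4, AURKAIP1, MEPCE, MYDGF, UBE2M and SDF2L1, of which all but SDF2L1 are named after their values were seen.

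The libraries held 20865360 to 27476298 counted reads in these groups and differed in their trend with the GC content of genes. For each rise of 10 points in GC, the log2 ratio to the mean of the 9 libraries shifted by -0.04 for vector replicate 1 but by 0.10 and 0.11 for replicates 2 and 3 of that group. The shift was -0.08, 0.03 and -0.04 for replicates 1, 2 and 3 of F-78(WT). The median fold change of F-78(WT) over vector ran from 0.07 in genes under 38% GC to -0.21 in genes over 66% GC, and the called genes had a median GC content of 44.7% (higher) and 57.1% (lower), against 48.6% of all tested genes. Vector replicate 1 was the vector library nearest to F-78(WT) in 31 of the 40 higher genes (77.5%) and in 53 of the 64 lower ones (82.8%), against 48.2% and 48.5% of all tested genes with a fold change of that sign.

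**Figure D1:**
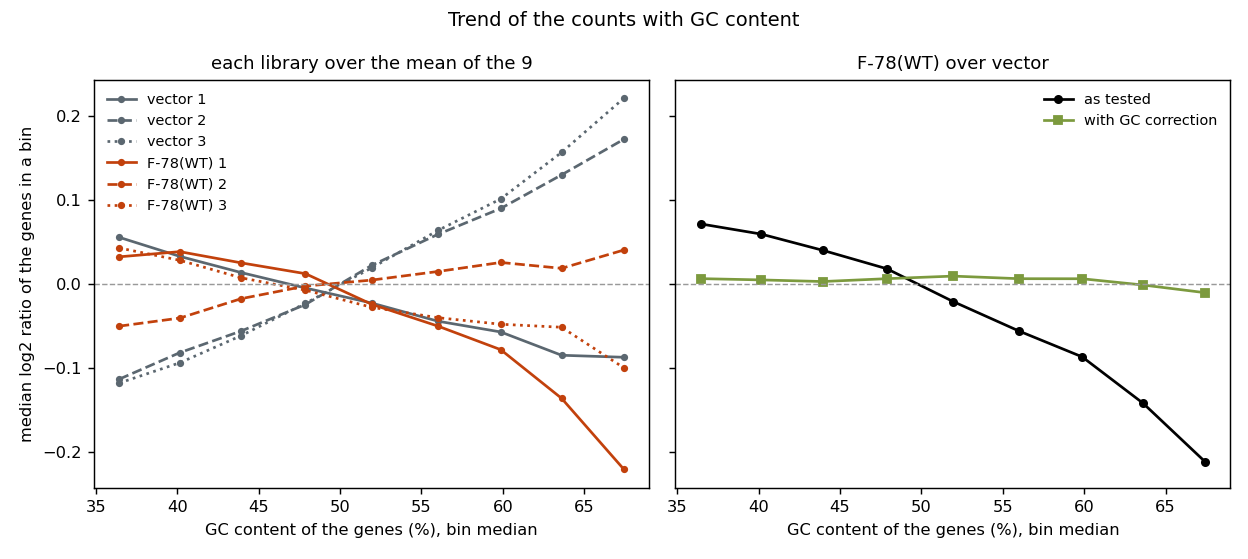
Median log2 ratio of genes binned by GC content (x axis, %), on the left for each vector (grey) and F-78(WT) (orange) library over the mean of the 9 libraries, on the right for F-78(WT) over vector as tested (black) and with a GC correction (green). Vector replicates 2 and 3 rise with GC and vector replicate 1 does not; the fold change falls from 0.07 to -0.21 as tested and lies between -0.01 and 0.01 after the correction.

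A correction of each library for GC content gave 105 higher genes (0.563%) and 75 lower ones (0.402%), among them 38 of the 40 and 49 of the 64, so the share of called genes that were higher moved from 38.5% to 58.3%. With library size alone in place of TMM scaling it was 18.4%. The calls also rested on single libraries. Without vector replicate 1 there were 526 higher and 730 lower genes, without vector replicate 2 there were 9 and 12, and without vector replicate 3 there were 8 and 13. Without F-78(WT) replicate 1, 2 or 3 there were 8 and 11, 83 and 235, and 18 and 12. Without one F-78(NLS Mut) library, which is in neither group but enters the filter on low counts, the scaling and the estimate of the spread, there were 20 to 23 higher and 35 to 39 lower genes. With vector replicate 1 as the only vector library, 14 and 5 genes were called, among them 5 of the 40 and 4 of the 64. The calls that held in every other refit that tested the gene included those of HSPA5 and its pseudogenes, CAV1, SERPINB4, MT-CO1, MT-CO2 and MT-ND4 among the higher genes, and of ATF3, DDIT3, PPP1R15A, GADD45A, MYC, BHLHA15 and KLHDC7B among the lower ones. Of these, HSPA5 and its pseudogenes, MT-CO2, ATF3, DDIT3 and KLHDC7B were also called with vector replicate 1 alone.

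The gene lists here and below were chosen with earlier results of these data known, so their shares of calls are descriptive only. Of the 36 tested members of a list of PERK, ATF4 and CHOP targets, 9 fell (25%, against 0.343% of all tested genes), none rose and 27 did not pass. The median log2 fold change of the list was -0.19, against 0.00 over all tested genes, with 30 of its members below 0 and 6 above. The 9 were ATF3, DDIT3, PPP1R15A, GADD45A, TRIB3, STC2, GDF15, SLC3A2 and SLC7A5. With the GC correction 8 of the list were lower and the median was -0.14. With one library left out, 4 to 17 were lower: 17 without vector replicate 1, 12 without F-78(WT) replicate 2, 6 or 7 without one F-78(NLS Mut) library, and 4 without any of the others, with medians from -0.22 to -0.14.

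ATF3, a stress-induced transcription factor downstream of ATF4, was at 38.9, 43.1 and 42.2 CPM in the vector libraries and at 22.2, 24.3 and 23.2 CPM in the F-78(WT) libraries. Every F-78(WT) value was well under every vector value, and the log2 fold change was -0.83 (SE 0.09, adjusted p = 7.87e-06). DDIT3, which encodes CHOP, the factor that links lasting ER stress to cell death, was at 49.1, 49.1 and 55.3 CPM in vector and at 29.9, 35.5 and 33.7 CPM in F-78(WT). Its fold change of -0.63 (SE 0.09, adjusted p = 0.000328) was among the largest of the list. PPP1R15A, or GADD34, which directs the phosphatase that reverses PERK's block of translation, was at 87.3, 101 and 102 CPM against 63.7, 76.8 and 57.1 CPM (-0.55, SE 0.09, adjusted p = 0.00103). GADD45A, a regulator of growth arrest after stress, went from 63.8, 75.6 and 78.3 CPM to 48.1, 53.7 and 48.1 CPM (-0.54, SE 0.08, adjusted p = 0.000684). All 4 genes were called in each of the 9 fits without 1 library, with fold changes between -0.88 and -0.46.

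The other called members moved less and were less stable. GDF15, a stress-induced cytokine, was at 78.6, 81.9 and 89.1 CPM in vector and at 56.1, 69.9 and 59.3 CPM in F-78(WT) (log2 fold change -0.43, adjusted p = 0.00977). STC2, a secreted glycoprotein, had a fold change of -0.33 (adjusted p = 0.0193), and its vector replicate 1, at 201 CPM, lay closest to the F-78(WT) values of 171 to 189 CPM. TRIB3, a pseudokinase that dampens ATF4 signalling, was at 354, 361 and 398 CPM against 298, 308 and 317 CPM (-0.27, adjusted p = 0.0322), and with the GC correction it was not called (-0.17, adjusted p = 0.114). SLC3A2 and SLC7A5 encode the chains of the LAT1 amino acid transporter. SLC3A2 was at 370, 404 and 439 CPM in vector and at 302, 361 and 343 CPM in F-78(WT) (-0.27, adjusted p = 0.0456), and SLC7A5 was at 997, 1064 and 1137 CPM and at 904, 928 and 909 CPM (-0.22, adjusted p = 0.0379), the latter losing its call with the GC correction (-0.12, adjusted p = 0.196). Each of these 5 genes was called in 2 to 5 of the 9 fits without 1 library. SLC7A7, an exchanger of basic amino acids that was on no list, had the largest decrease named, from 3.60, 3.29 and 4.26 CPM to 1.67, 1.66 and 1.25 CPM (-1.28, SE 0.29, adjusted p = 0.0374), at a low level. ATF4 transcript was at 391, 414 and 429 CPM in vector and at 362, 392 and 378 CPM in F-78(WT), ranges that touch, and did not pass (-0.12, SE 0.05, adjusted p = 0.342). Of 32 genes of amino acid synthesis and tRNA synthetases, none was called by edgeR or DESeq2, with a median of -0.06. At an unadjusted p under 0.05, 1 was higher and 4 were lower, and 2 were called lower without vector replicate 1.

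**Figure D2:**
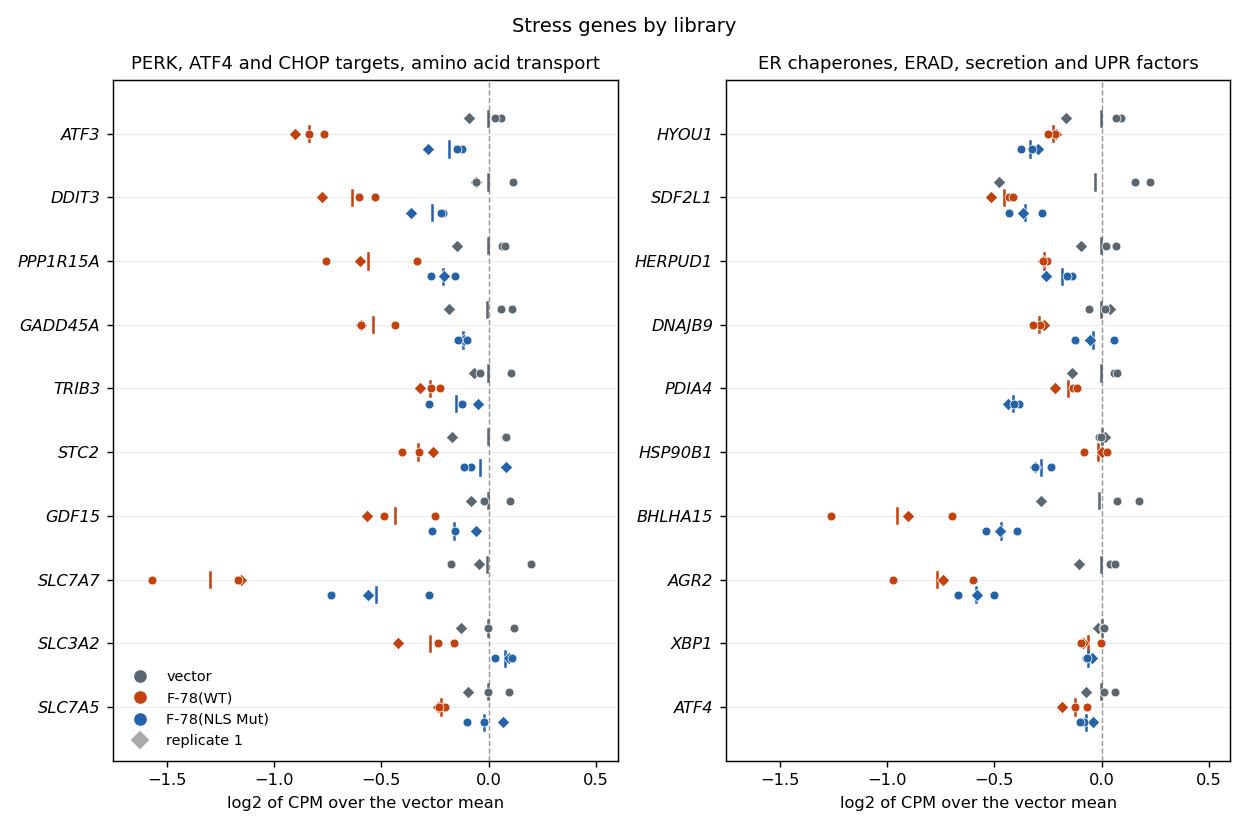
Level of each stress gene in each of the 9 libraries, as log2 of CPM over the vector mean (x axis), for vector (grey), F-78(WT) (orange) and F-78(NLS Mut) (blue); diamonds are replicate 1, circles replicates 2 and 3, and short bars group means of the log2 ratios. The F-78(WT) points of ATF3, DDIT3, PPP1R15A and GADD45A lie left of all vector points, whereas those of HSP90B1, XBP1 and ATF4 are near the vector points.

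Of the ER proteins and their regulators, HYOU1, SDF2L1, HERPUD1, AGR2 and BHLHA15 were called lower. HYOU1 (GRP170), an ER chaperone and exchange factor of GRP78, was at 817, 976 and 960 CPM in vector and at 791, 789 and 771 CPM in F-78(WT). The fold change of -0.23 (SE 0.05) was just inside the threshold (adjusted p = 0.0496) and was called in 1 of the 9 fits without 1 library. SDF2L1, which works with ER DnaJ proteins, was at 92.7, 144 and 151 CPM against 90.4, 95.9 and 97.0 CPM. Vector replicate 1 lay inside the F-78(WT) range, and the call (-0.46, SE 0.11, adjusted p = 0.0383) was lost with the GC correction (-0.27, adjusted p = 0.0617). HERPUD1, an ER membrane protein of ERAD, was at 409, 443 and 458 CPM and at 362, 365 and 361 CPM (-0.27, SE 0.05, adjusted p = 0.0165), and it kept its call with the GC correction (-0.28, adjusted p = 0.000877). AGR2, a disulfide isomerase of secretory epithelia, fell from 13.9, 15.3 and 15.6 CPM to 8.95, 9.86 and 7.62 CPM (-0.76, SE 0.14, adjusted p = 0.00765). AGR2 was called in 5 of the 9 fits without 1 library. It kept its call with the GC correction (-0.81, adjusted p = 0.00165) but not with the GC slope of each sample as a covariate (-0.65, adjusted p = 0.0992). BHLHA15, or MIST1, a transcription factor of secretory cells that XBP1 is known to induce, fell from 20.5, 26.3 and 28.2 CPM to 13.4, 15.4 and 10.4 CPM (-0.93, SE 0.14, adjusted p = 0.000447).

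By list, against 0.343% of all tested genes called lower, 2 of 18 co-chaperones and exchange factors of GRP78 fell (11.1%, median -0.10), 1 of 24 disulfide isomerases and ER oxidases (median -0.05), 1 of 47 genes of ERAD and translocation (median -0.03) and none of 29 genes of the GRP94, calnexin and glycosylation list (median -0.03; 2 higher and 6 lower at an unadjusted p under 0.05, and none called by DESeq2). In the same order of lists, the lower calls were 6, 3, 6 and 5 without vector replicate 1, with 1 higher gene of ERAD, and 2, 2, 2 and 2 without F-78(WT) replicate 2. Without any other vector or F-78(WT) library they were 0 in all 4 lists, without any one F-78(NLS Mut) library 0, 1, 1 and 0, and with the GC correction 4, 1, 2 and 2. With the GC correction DNAJB9, a DnaJ protein of the ER also called ERdj4, was called lower as well (-0.34, adjusted p = 0.00381). In the fit without that correction it was at 73.8, 68.8 and 72.6 CPM in vector and at 59.6, 58.7 and 57.4 CPM in F-78(WT), ranges that did not overlap, with a fold change of -0.29 (adjusted p = 0.0629). PDIA4, a disulfide isomerase, was at 2449 to 2838 CPM in vector and at 2323 to 2489 CPM in F-78(WT) (-0.15, adjusted p = 0.149). HSP90B1, the gene of GRP94, the ER's HSP90 chaperone, was at 2419 to 2461 CPM in vector and 2306 to 2480 CPM in F-78(WT), with a fold change of -0.02 (SE 0.04, adjusted p = 0.921). Among 19 UPR sensors and transcription factors only DDIT3 and ATF3 were called, both lower, and the lower calls were 5 without vector replicate 1, 4 without F-78(WT) replicate 2 and 2 without any other library. XBP1, counted over all its splice forms, was at 392, 398 and 399 CPM in vector and at 373, 371 and 395 CPM in F-78(WT) (-0.06, SE 0.05, adjusted p = 0.706).

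Promoters were searched for short sequences that UPR factors are known to bind. Among HSPA5 and the called genes of the ER and their regulators, matches to the forms searched were found only for HSPA5, HYOU1 and HERPUD1, whose promoters are shown. Other forms of these sequences were neither searched nor marked. In the 250 bases before the transcription start (RefSeq, GRCh38.p14), capitals mark the ER stress element of HSPA5 (CCAAT and CCACG with 9 bases between them), the UPR element core TGACGTGG of HYOU1 and, read on the opposite strand, the ATF4 site TGATGCAA of HERPUD1. All run 5′ to 3′ on the strand of the gene, HSPA5 on the minus strand at chr9:125241344-125241593, HYOU1 on the minus strand at chr11:119057206-119057455 and HERPUD1 on the plus strand at chr16:56931892-56932141.
HSPA5: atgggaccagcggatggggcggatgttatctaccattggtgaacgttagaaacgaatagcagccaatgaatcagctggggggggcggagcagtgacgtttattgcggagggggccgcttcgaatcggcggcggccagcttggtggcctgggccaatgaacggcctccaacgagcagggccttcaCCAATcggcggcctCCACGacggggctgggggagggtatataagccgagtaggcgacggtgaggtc
HYOU1: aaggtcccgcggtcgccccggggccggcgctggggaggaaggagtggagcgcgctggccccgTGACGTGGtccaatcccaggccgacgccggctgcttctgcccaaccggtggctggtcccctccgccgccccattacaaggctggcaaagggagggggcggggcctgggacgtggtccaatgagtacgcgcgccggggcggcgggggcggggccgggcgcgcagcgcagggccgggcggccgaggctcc
HERPUD1: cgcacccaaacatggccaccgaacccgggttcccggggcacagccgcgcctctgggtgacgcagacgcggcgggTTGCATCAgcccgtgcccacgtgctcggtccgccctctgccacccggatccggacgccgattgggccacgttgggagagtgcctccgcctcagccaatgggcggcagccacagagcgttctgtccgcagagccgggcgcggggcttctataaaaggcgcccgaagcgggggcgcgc

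Promoters were found for 50 of the 64 lower genes, 25 of the 40 higher genes and 12151 tested genes with distinct symbols, and the motifs were searched on both strands. The ER stress element was in 1 of the 25 promoters of higher genes (HSPA5), in 0 of the 50 of lower genes and in 0.115% of those of tested genes. Only its form with 9 bases between CCAAT and CCACG was searched. Promoters without a match, those of HYOU1 and HERPUD1 included, may therefore hold the element in another form. HSPA5 was the transfected gene, so the design itself placed it among the higher genes, and its match says nothing about genes that responded. The UPR element core was in 1 of 25 (SMIM14, a higher gene on no list), 1 of 50 (HYOU1) and 0.757%. The ATF4 site was in 0 of 25, 1 of 50 (HERPUD1) and 0.403%, and the sterol element core CACCCCAC in 0 of 25, 2 of 50 and 2.36%. The E-box CACGTG, a site of basic helix-loop-helix factors such as MYC, was in 4 of 25 (16%), 9 of 50 (18%) and 8.53%. These are matches of letters, not sites of binding.

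MYC, a driver of growth and ribosome production, was at 603, 719 and 749 CPM in vector and at 431, 537 and 502 CPM in F-78(WT). The groups did not overlap, and its log2 fold change was -0.49 (SE 0.07, adjusted p = 0.000242). The call held in all 9 fits without 1 library. Of 46 tested genes of the MYC network and ribosome biogenesis list, 2 fell (4.35%, against 0.343% of all tested genes), MYC itself and UPP1, a uridine phosphorylase, at 395, 437 and 449 CPM against 320, 366 and 371 CPM (-0.28, SE 0.06, adjusted p = 0.0259), and the median of the list was -0.08, with 37 members below 0. The lower calls of the list were 9 without vector replicate 1, 3 without F-78(WT) replicate 2, 1 or 2 without any other library and 3 with the GC correction.

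Of 26 immediate early genes, which respond to signals within minutes, 4 fell (15.4%, against 0.343% of all tested genes) and 23 were below 0, with a median of -0.24. They were JUN, at 152, 187 and 189 CPM against 133, 146 and 139 CPM (-0.34, SE 0.07, adjusted p = 0.0202), EGR1 (-0.32, adjusted p = 0.0488), KLF4 (-0.28, adjusted p = 0.0406) and MAFK (-0.49, adjusted p = 0.00631), all transcription factors. The call count of this list depended on single libraries: it was 11 without vector replicate 1, 2 without vector replicate 2, 0 without vector replicate 3, 0 without F-78(WT) replicate 1, 5 without F-78(WT) replicate 2, 0 without F-78(WT) replicate 3 and 2 without any one F-78(NLS Mut) library. With the GC correction it was again 4, and the median was -0.15. DUSP1, a phosphatase that turns off MAP kinases, went from 51.3, 49.0 and 51.2 CPM to 37.4, 34.0 and 38.7 CPM (-0.46, SE 0.09, adjusted p = 0.00915). It was the 1 call among 26 genes of the EGFR family and MAPK feedback (3.85%, against 0.343% of all tested genes called lower). Without vector replicate 2 or 3 or F-78(WT) replicate 1 that list had no call, and without vector replicate 1 it had 1 higher gene as well.

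The list of NF-kB genes, cytokines and complement had 4 lower members and 1 higher member of 35 (11.4% and 2.86%, against 0.343% and 0.214% of all tested genes), with a median of -0.21. TNFAIP3, or A20, a feedback inhibitor of NF-kB, fell from 42.04, 41.6 and 44.7 CPM to 27.2, 33.4 and 27.0 CPM (-0.55, SE 0.10, adjusted p = 0.00341). RELB, an NF-kB subunit, fell from 25.8, 28.3 and 31.6 CPM to 17.8, 21.7 and 18.5 CPM (-0.56, SE 0.11, adjusted p = 0.0158). The cytokines LIF (-0.31, adjusted p = 0.0488) and IL11 (-0.39, adjusted p = 0.0473) passed narrowly. The lower calls of this list became 10 without vector replicate 1, 1 without vector replicate 2 or 3, 0 without F-78(WT) replicate 1 or 3, 5 without F-78(WT) replicate 2 and 2 without one F-78(NLS Mut) library. The higher member was C4B, a complement component, at 11.3, 9.52 and 8.44 CPM against 17.0, 14.4 and 15.3 CPM (0.68, SE 0.15, adjusted p = 0.0278). It shares reads with the near-identical C4A, which was at 10.7, 9.99 and 11.8 CPM and at 13.6, 11.8 and 14.3 CPM (0.29, adjusted p = 0.423), so the split between them is uncertain.

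**Figure D3:**
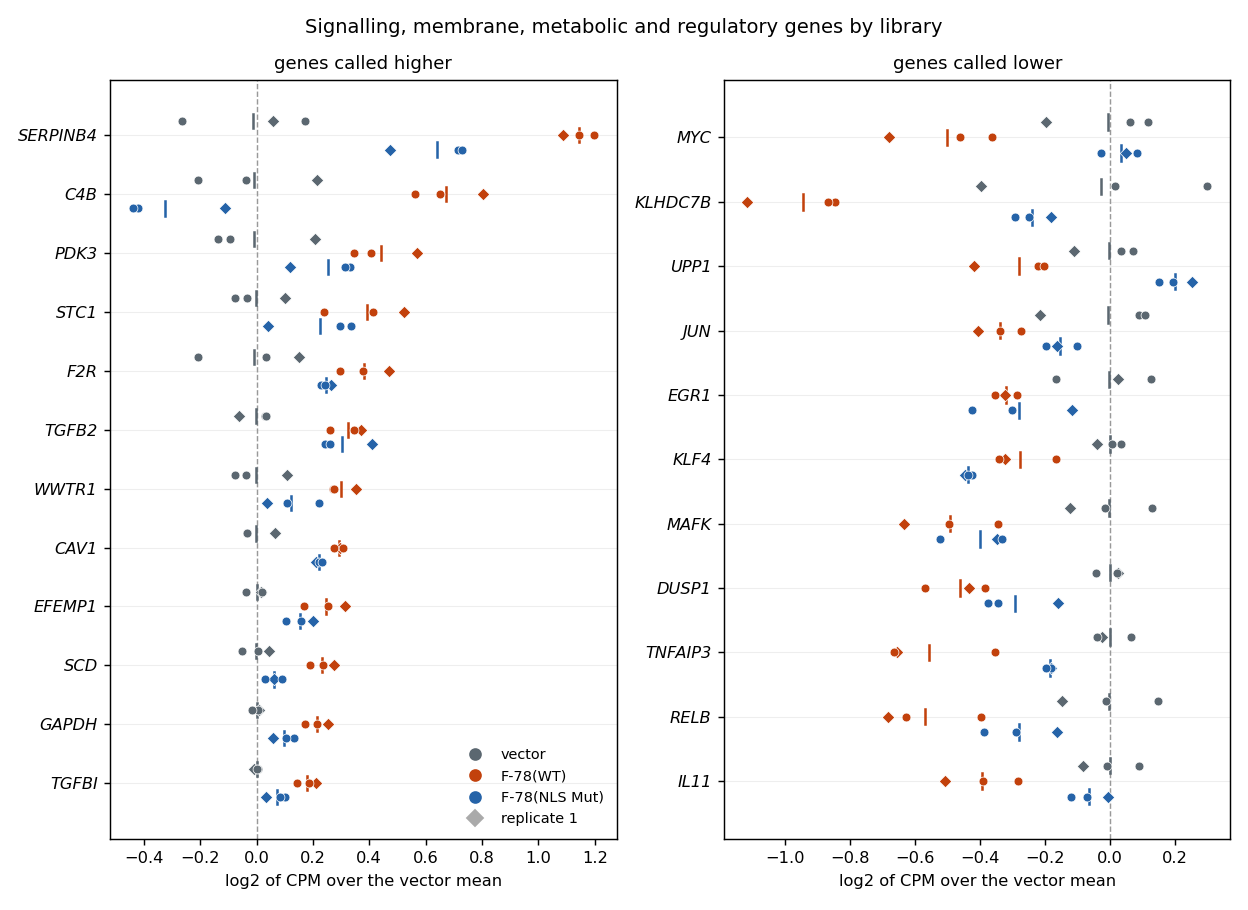
Level of genes called higher (left) and lower (right) with F-78(WT), as log2 of CPM over the vector mean (x axis) in each library, for vector (grey), F-78(WT) (orange) and F-78(NLS Mut) (blue), with diamonds for replicate 1, circles for replicates 2 and 3 and short bars for group means of the log2 ratios. In every gene shown the F-78(WT) and vector points do not overlap, and in MYC, UPP1 and C4B the F-78(NLS Mut) points lie at or beyond the vector points, away from F-78(WT).

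Among the higher genes were several of the cell surface, caveolae and matrix. CAV1, the scaffold protein of caveolae, was at 557, 520 and 520 CPM in vector and at 654, 644 and 659 CPM in F-78(WT). The spread within each group was small, and the log2 fold change was 0.29 (SE 0.05, adjusted p = 0.00198). Its partner CAV2, named after its values were seen, was at 228, 183 and 185 CPM against 255, 229 and 244 CPM (0.29, adjusted p = 0.0488), with vector replicate 1 next to the lowest F-78(WT) value. SERPINB4, an intracellular serine protease inhibitor of squamous epithelia, rose from 4.204, 3.36 and 4.55 CPM to 8.59, 8.94 and 9.26 CPM (1.14, SE 0.18, adjusted p = 0.00138). It is a near copy of SERPINB3, which was at 1.34, 1.59 and 1.30 CPM and at 2.35, 1.502 and 3.04 CPM (0.69, adjusted p = 0.486), so reads may be split between them.

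TGFB2, a ligand of the TGF-beta pathway, was at 50.03, 53.3 and 53.5 CPM against 67.5, 62.7 and 66.5 CPM (0.33, SE 0.08, adjusted p = 0.0430), and was not called with the GC correction (0.26, adjusted p = 0.0764). WWTR1, or TAZ, a coactivator of the Hippo pathway, went from 117, 103 and 106 CPM to 139, 132 and 132 CPM (0.30, SE 0.07, adjusted p = 0.0322). CCN1, a matrix protein and known target of YAP and TAZ, went the other way, from 226, 247 and 270 CPM to 200, 191 and 201 CPM (-0.33, SE 0.06, adjusted p = 0.00750). These 3 were the calls among 32 genes of the TGF-beta and YAP list, with a median of 0.03. The 2 higher ones were 6.25% of the list (against 0.214% of all tested genes) and the 1 lower one 3.125% (against 0.343%). TGFBI, a matrix protein induced by TGF-beta, was at 1966, 1982 and 1981 CPM against 2285, 2185 and 2246 CPM (0.18, SE 0.04, adjusted p = 0.0322). EFEMP1, a fibulin, was at 211, 211 and 203 CPM against 259, 234 and 249 CPM (0.25, SE 0.06, adjusted p = 0.0387). They were 2 of 63 matrix genes (3.17%, against 0.214% of all tested genes called higher), whose median was 0.06. CAV1 was the 1 call among 58 genes of integrins, adhesion and proteolysis (1.72%, against the same 0.214%), with a median of 0.08. Without vector replicate 1 the matrix list had 11 higher and 5 lower genes and the integrin list 11 and 2. Without F-78(WT) replicate 2 they had 5 and 1, and 2 and 1. The matrix list had 1 higher gene without F-78(NLS Mut) replicate 1 and no call without any of the others, while the integrin list had 1 higher gene in each of these. With the GC correction the higher genes were 5 and 3. The TGF-beta and YAP list had 3 higher and 2 lower genes without vector replicate 1, 2 and 1 without F-78(WT) replicate 2, no call without vector replicate 2 or 3 or F-78(WT) replicate 3, and 1 lower gene without any of the others.

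Further increases were in genes of receptors, secreted factors and metabolic enzymes. F2R, the thrombin receptor PAR1, was at 79.0, 61.7 and 73.0 CPM against 98.7, 92.5 and 87.4 CPM (0.38, adjusted p = 0.0172). IL1R1, the interleukin 1 receptor, was at 51.0, 50.7 and 48.2 CPM against 69.2, 58.5 and 68.8 CPM (0.39, adjusted p = 0.0338). PMP22, a membrane protein, was at 42.2 to 43.7 CPM against 52.1 to 58.3 CPM (0.37, adjusted p = 0.0338), and STC1, a secreted stanniocalcin, at 48.7 to 55.0 CPM against 60.5 to 73.7 CPM (0.40, adjusted p = 0.0317). PDK3, a kinase that inhibits pyruvate dehydrogenase, was at 30.7 to 39.0 CPM against 42.9 to 50.2 CPM (0.45, adjusted p = 0.0322). GAPDH, the glycolytic enzyme often used as a reference gene, was at 1172, 1170.0 and 1152 CPM against 1389, 1312 and 1351 CPM (0.21, SE 0.04, adjusted p = 0.0165). PGK1, the next enzyme of the pathway, had a fold change of 0.21 (adjusted p = 0.0387), and with the GC correction of 0.17 (adjusted p = 0.0620). These were the 2 calls among 36 genes of glycolysis and hypoxia (5.56%, against 0.214% of all tested genes), with a median of 0.11 and 27 members above 0. With one library left out the list had 6 higher calls without vector replicate 1, 2 without F-78(WT) replicate 2, 1 without one F-78(NLS Mut) library and 0 without any of the others. SCD, the desaturase that makes monounsaturated fatty acids, was at 842, 819 and 788 CPM against 987, 962 and 930 CPM (0.23, SE 0.05, adjusted p = 0.0135). It was the 1 call of 36 genes of sterol and fatty acid synthesis (2.78%, against 0.214% of all tested genes called higher). That list had 7 higher genes and 1 lower without vector replicate 1, none without vector replicate 2 or 3 or F-78(WT) replicate 1, 1 higher without any of the others, and 2 higher with the GC correction.

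The list with the largest share of calls was the mitochondrial genome, which encodes subunits of the respiratory chain. Of its 13 protein and 2 ribosomal RNA genes, 7 rose (46.7%, against 0.214% of all tested genes) and none fell, with a median log2 fold change of 0.24. MT-CO1 was at 9324, 8507 and 8288 CPM in vector and at 11730, 9755 and 10146 CPM in F-78(WT) (0.28, SE 0.05, adjusted p = 0.00326). MT-CO2, a further subunit of cytochrome c oxidase, was at 6925, 6793 and 6660 CPM against 8748, 7571 and 7826 CPM (0.24, SE 0.04, adjusted p = 0.00319). MT-ND4, of complex I, was at 8310, 7603 and 7432 CPM against 10267, 8898 and 8961 CPM (0.27, SE 0.05, adjusted p = 0.00279). In these 3 genes and in MT-ND5, MT-ND6, MT-ATP6 and MT-CYB, whose fold changes were 0.23 to 0.39, F-78(WT) replicate 1 was the highest of the 6 libraries. The 7 calls share this library pattern and are not independent of each other, so their share is not directly comparable with that of all tested genes.

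The 13 protein genes together took 4.55%, 4.22% and 4.18% of the counted reads in vector replicates 1, 2 and 3 and 5.36%, 4.72% and 4.74% with F-78(WT), in the same order. F-78(NLS Mut) ran from 4.46% to 4.56%, overlapping vector and under every F-78(WT) value. Without F-78(WT) replicate 1 the calls were 3 and the median 0.17. They were also 3 without vector replicate 2 or 3, and 6 to 9 without any of the other libraries. The ribosomal RNAs, MT-RNR1 (-0.23, adjusted p = 0.397) and MT-RNR2 (0.08, adjusted p = 0.340), and MT-ND3 (-0.08, adjusted p = 0.722) were not called. MTATP6P1, a nuclear pseudogene that resembles the MT-ATP6 region, was called higher (0.40, adjusted p = 0.0168) and may hold mitochondrial reads. In bulk samples more mitochondria per cell, more transcripts per mitochondrion and less other RNA cannot be told apart.

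**Figure D4:**
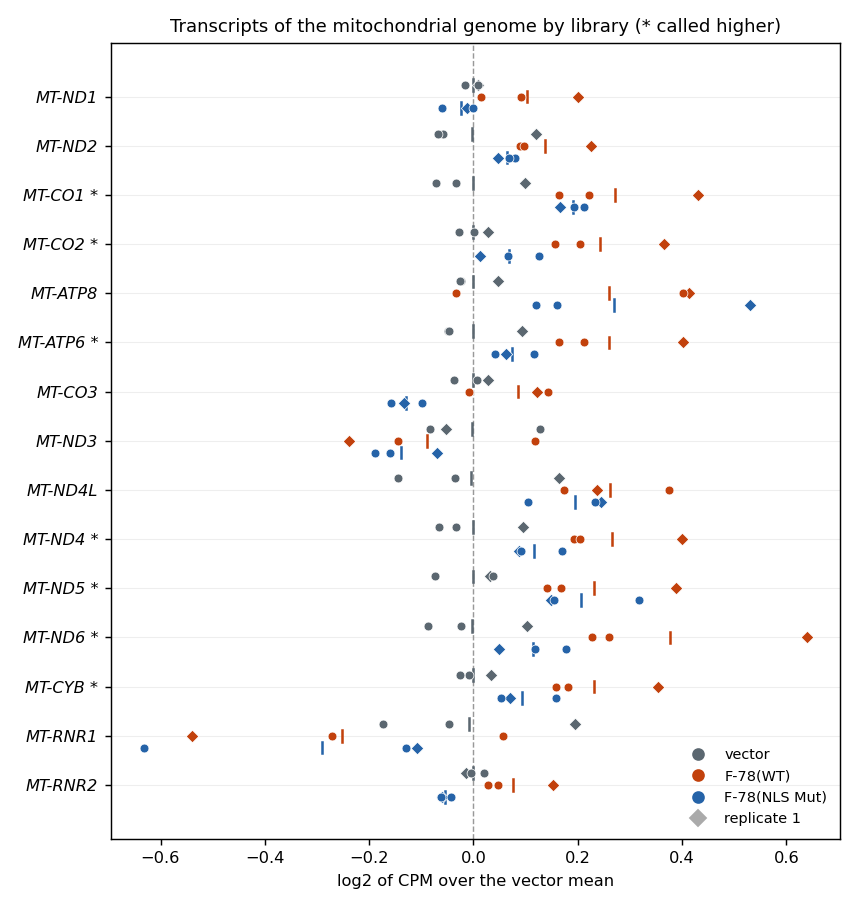
Level of the 15 genes of the mitochondrial genome as log2 of CPM over the vector mean (x axis) in each library, for vector (grey), F-78(WT) (orange) and F-78(NLS Mut) (blue), with diamonds for replicate 1, circles for replicates 2 and 3 and short bars for group means of the log2 ratios. The 7 genes marked with an asterisk were called higher, and in each of them F-78(WT) replicate 1 is the rightmost point.

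The largest decreases outside these groups were in genes with low counts. KLHDC7B, a kelch domain protein, was the exception and fell from 63.7, 84.7 and 103 CPM to 38.7, 46.6 and 45.9 CPM (-0.94, SE 0.11, adjusted p = 1.02e-05). DNAH17, an axonemal dynein chain, fell from 10.2, 10.2 and 12.3 CPM to 4.75, 6.47 and 5.59 CPM (-0.96, SE 0.16, adjusted p = 0.00319). MICB, a stress-induced ligand of the NK cell receptor NKG2D, fell from 3.88, 4.67 and 4.07 CPM to 1.85, 2.195 and 1.74 CPM (-1.12, SE 0.26, adjusted p = 0.0387), and its close relative MICA was at 4.53 to 4.96 CPM against 3.35 to 4.62 CPM (-0.30, adjusted p = 0.638). NEURL3, a ubiquitin ligase, was at 3.69 to 5.03 CPM against 1.64 to 2.66 CPM (-1.12, adjusted p = 0.0488), and RNF223, of the RING finger family, at 6.61 to 11.4 CPM against 3.35 to 5.47 CPM (-0.98, adjusted p = 0.0338). PHLDA2, an imprinted growth regulator (-0.77, adjusted p = 0.00922), SH2D5 (-0.76, adjusted p = 0.0179) and TMEM200B (-0.84, adjusted p = 0.0473) completed the 12 largest decreases. IFI6, an interferon-induced gene, fell from 303, 375 and 400 CPM to 209, 299 and 276 CPM (-0.46, SE 0.09, adjusted p = 0.0114), whereas 30 of the 38 tested interferon genes lay above 0, with a median of 0.12. In the fit on all 9 libraries IFI6 was the only call among them (2.63%, against 0.343% of all tested genes called lower). Without vector replicate 1 there were 15 higher and 4 lower interferon genes, without F-78(WT) replicate 2 there were 3 lower, without any other vector or F-78(WT) library there were none, and the GC correction gave 1 higher and 1 lower.

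The remaining called genes are on no list and are named after their values were seen. Among the higher ones were KCTD12, a channel-associated protein, at 99.8, 88.3 and 89.1 CPM against 125, 117 and 114 CPM (0.36, SE 0.07, adjusted p = 0.00750), TUBA1A, an alpha tubulin, at 89.7, 95.8 and 86.1 CPM against 118, 120 and 107 CPM (0.34, SE 0.07, adjusted p = 0.0169), and AHNAK, a large scaffold protein of the cell cortex, with a fold change of 0.26 (adjusted p = 0.0373). Among the lower ones, CLDN1, a claudin of tight junctions, was at 20.05, 18.0 and 16.4 CPM against 8.36, 10.5 and 14.1 CPM (-0.73, SE 0.15, adjusted p = 0.0200), and HKDC1, a hexokinase, at 150, 167 and 165 CPM against 119, 126 and 129 CPM (-0.37, SE 0.06, adjusted p = 0.00338). IGFBP6, which binds insulin-like growth factors, was at 261, 319 and 330 CPM against 217, 255 and 219 CPM (-0.40, SE 0.07, adjusted p = 0.00610), and TNFRSF12A, the receptor of TWEAK, at 195, 246 and 253 CPM against 164, 185 and 168 CPM (-0.43, SE 0.08, adjusted p = 0.00610). In IGFBP6 and TNFRSF12A vector replicate 1 was the lowest vector library and lay closest to F-78(WT).

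Few genes of the remaining lists passed edgeR's test. None of 44 genes of DNA replication (median 0.03), 45 of mitosis (0.07), 29 of the cytosolic heat shock response (-0.02), 20 of antigen presentation (-0.11), 30 of oxidative stress (0.01) or 35 of autophagy and lysosome (-0.04) passed. GDF15 was the 1 call among 32 genes of p53 targets and apoptosis (median -0.01). That is 3.125% called lower, against 0.343% of all tested genes. At an unadjusted p under 0.05 the higher and lower genes of the 6 lists without a call were 4 and 2 of DNA replication, 5 and 0 of mitosis, 6 and 1 of heat shock, 2 and 9 of antigen presentation, 1 and 4 of oxidative stress and 2 and 5 of autophagy and lysosome. DESeq2 called 1 higher gene of DNA replication, 2 higher of heat shock, 3 lower of antigen presentation and 1 lower of autophagy and lysosome, and none of the other lists of these 6. Without vector replicate 1 the lower calls were 2 of DNA replication, 2 of heat shock, 6 of antigen presentation, 4 of oxidative stress, 3 of autophagy and lysosome and 3 of p53 targets, and the higher ones 3 of mitosis, 2 of heat shock and 1 each of antigen presentation, oxidative stress, autophagy and p53 targets. Without F-78(WT) replicate 2 there were 3 lower genes of antigen presentation, 1 of oxidative stress, 1 of autophagy and 3 of p53 targets, and 1 higher gene of heat shock, and without any other library none of the 6 lists had a call. The GC correction gave 1 higher gene of heat shock, 1 lower of antigen presentation and 1 lower of oxidative stress. EGFR, the receptor tyrosine kinase studied with GRP78 in these cells, was at 345, 337 and 316 CPM in vector and at 385, 341 and 340 CPM in F-78(WT). The ranges overlapped, and the log2 fold change of 0.10 (SE 0.06) did not pass (adjusted p = 0.541). ID2, an inhibitor of basic helix-loop-helix factors, was at 18.3, 18.8 and 19.1 CPM against 23.3, 18.5 and 19.3 CPM (0.12, SE 0.12, adjusted p = 0.754). Of 17 epithelial and lung markers, 14 were at 1 CPM or more in these groups, with a sum of 5004 to 5740 CPM in vector and 5308 to 5432 CPM in F-78(WT), while the surfactant genes SFTPB, SFTPC and SFTPD were near or at 0. None of the tested markers of epithelium, fibroblasts, immune cells or endothelium was called, and DCN, CD3E and LYZ were listed at 0.

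**Figure D5:**
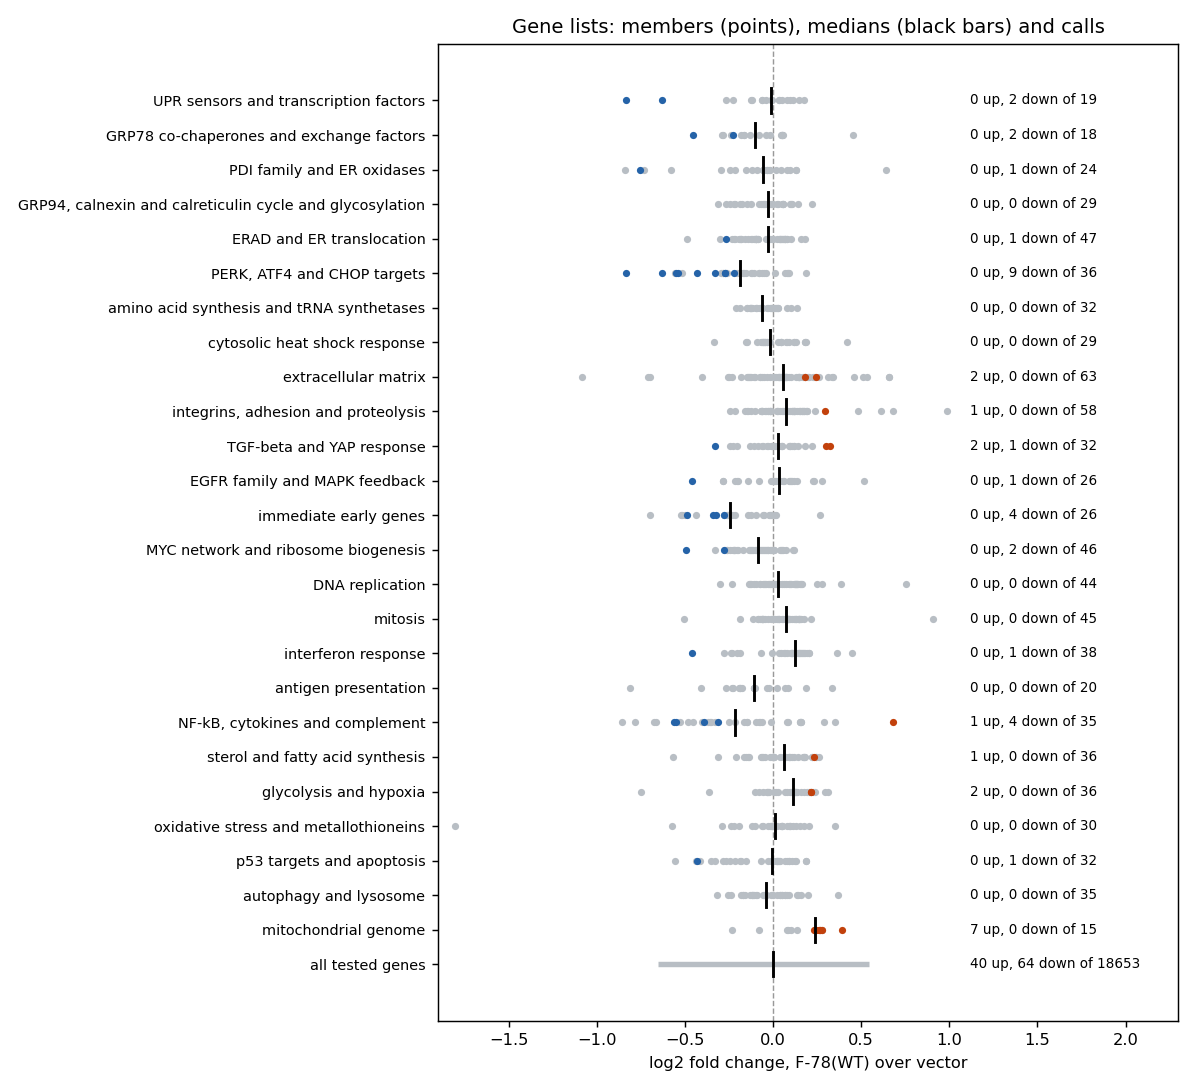
Log2 fold change of F-78(WT) over vector (x axis) for the tested members of each gene list (points; orange called higher, blue called lower, grey not called), with the list median as a black bar and the numbers of calls at the right; for all tested genes the grey bar spans the 5th to the 95th percentile. The medians of the PERK, immediate early and NF-kB lists lie at -0.19, -0.24 and -0.21, and that of the mitochondrial genome at 0.24.

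The direct contrast with F-78(NLS Mut), in the same fit, asks which of these genes also differed between the wild-type protein and the mutant. It called 94 genes of all those tested (0.504%). Both contrasts use the same 3 F-78(WT) libraries, so a gene called in both is no independent result. Of the genes called against vector, C4B, CHP1 and MT-CO2 were higher with the wild-type protein, and ATF3, GADD45A, STC2, UPP1, MYC, SLC3A2, DNAH17 and KLHDC7B were lower, by their own tests in this contrast. CHP1, a calcineurin-like protein named after its values were seen, was at 98.6, 93.7 and 88.8 CPM in vector, 124, 110 and 114 CPM in F-78(WT) and 87.0, 89.9 and 94.6 CPM in F-78(NLS Mut). MYC was at 714, 731 and 678 CPM in F-78(NLS Mut), within the vector range, and F-78(WT) was lower than the mutant by a log2 fold change of -0.53 (adjusted p = 9.49e-05). ATF3 was at 34.1, 37.97 and 37.4 CPM in F-78(NLS Mut), between the other groups, and F-78(WT) was lower (-0.65, adjusted p = 0.000348). UPP1 was at 508, 488 and 474 CPM, above every vector library, and F-78(WT) was again lower (-0.47, adjusted p = 5.85e-05).

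DDIT3, at 39.8, 44.2 and 43.9 CPM in F-78(NLS Mut), did not pass between the F-78 groups (-0.37, adjusted p = 0.0606), nor did PPP1R15A, at 83.6, 86.7 and 80.3 CPM (-0.34, adjusted p = 0.0609). HYOU1 was at 748, 732 and 707 CPM with the mutant, and the contrast gave 0.10 (adjusted p = 0.481). For HSP90B1 and PDIA4, which were not called against vector, F-78(WT) was higher than the mutant, whose libraries held 1968 to 2070 and 1992 to 2066 CPM (0.27 and 0.26, adjusted p = 0.000574 and 0.00572). In both genes the mutant was lower than vector by the same quasi-likelihood test (-0.28 and -0.41, adjusted p = 0.000268 and 9.12e-06). HSPA5 was at 4961, 5156 and 4765 CPM with the mutant, and the contrast with F-78(WT) gave 0.19 (SE 0.05, adjusted p = 0.0795), which did not pass. Whether the amount of HSPA5 transcript bears on the differences between the F-78 groups was not tested.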

How the data were processed

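RNA-Seq was carried out on 9 samples of H1975 cells, in groups of 3 (vector, F-78(WT), F-78(NLS Mut)). For each sample the authors deposited raw counts of reads per gene, not normalized, in the layout of STAR, and the submitters' processing notes name STAR 2.7.9a, DESeq2 1.36.0 and the genome build GRCh38.p14. The annotation and the library kit are not given in the sources used here. The unstranded column was read, because 50.6% to 51.9% of the strand-assigned reads were forward, so overlapping and antisense genes are uncertain. The lines that name no gene held 27.6% to 30.7% of a library and were left out. Replicates differed by more than the sampling noise, and the median biological coefficient of variation was 11.2%.

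The counts of all 9 samples were scaled by TMM (edgeR 4.0.16 in R 4.3.3), filtered with filterByExpr and fitted with 1 coefficient per group. F-78(WT) was compared with vector by the quasi-likelihood test, and all adjusted p-values are Benjamini-Hochberg values over the 18653 genes tested, with a threshold of 0.05. CPM uses the TMM library sizes, and SE is the standard error of the log2 fold change. GC content came from GENCODE 29, which held 58342 of the 61544 genes, and the GC correction removed a loess trend (span 0.3) from each library. Lists were not tested as sets: the number of calls and the median are given. The genes, lists and rules were chosen with earlier results of these data known. Of 928 list entries 927 matched a gene. Named are HSPA5, the 12 largest increases and decreases among called genes with groups that did not overlap and a group mean of at least 1 CPM, every called list member, and XBP1, ATF4, DDIT3, ATF3, TRIB3, DNAJB9, HYOU1, SDF2L1, HERPUD1, HSP90B1, PDIA4, EGFR, ID2 and MYC. Others were named after their values were seen. One called gene is not reported here. Near-identical copies may share reads, among them GTF2I and RPL41P1.

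Alternatives were DESeq2 1.42.0, its size factors, library size alone, other filters, both strand columns summed, only the 6 samples compared, a replicate block, corrections for GC and length, the GC slope of each sample as a covariate, vector replicate 1 as the only vector sample, a threshold of 0.01 and leaving out each sample. The GC correction without each vector replicate and DESeq2 with only the 6 samples are alternatives chosen after seeing the data. The procedures were tested on simulated data that held no GC trend and no deviating library. That test cannot show how the calls behave where those features are present, as they are here. Promoters came from RefSeq.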

Additional observations from a re-analysis of the deposited data

How the results depend on the processing

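HSPA5 stayed called, with log2 fold changes of 3.83 to 3.99, in all 26 refits. The counts of higher and lower genes, 40 and 64, moved by over 1.5 times in at least one direction in many of them. They were 135 and 121 with DESeq2, 26 and 115 with library size alone, 78 and 211 with no filter on low counts, 8 and 18 with only the 6 samples compared, 105 and 75 with the GC correction, 122 and 82 with the GC and length correction, 30 and 19 with the GC slope as a covariate, 14 and 5 with vector replicate 1 as the only vector sample, and 12 and 20 at a threshold of 0.01. Without 1 sample they ranged from 8 to 526 higher and from 11 to 730 lower, both most without vector replicate 1. With the GC correction they were 222 and 201 without vector replicate 1, 34 and 32 without replicate 2 and 27 and 28 without replicate 3. DESeq2 size factors (43 and 58), at least 50 reads in 3 samples (49 and 80), the strand sum (44 and 64) and DESeq2 with only the 6 samples (53 and 61) moved them less. Of the genes called with the GC slope as a covariate, 15 and 17 were among the 40 and 64. At an unadjusted p under 0.05 the counts were 969 and 1217.

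With a replicate block the counts were 78 and 154, and 132 and 104 when combined with the GC correction; the 40 and 64 were all among the 78 and 154. The labels do not say whether the replicate numbers pair the samples. Deviations of same-numbered vector and F-78(WT) samples correlated at 0.06, 0.03 and 0.00. F-78(WT) replicates 1 and 2 correlated best with the vector replicate of the same number, and F-78(WT) replicate 3 with vector replicate 2. These deviations are from the mean of only 3 samples per group, so they cannot decide whether the samples are paired.

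Among single named genes, 3 values changed sign: SDF2L1 with vector replicate 1 as the only vector sample (0.025), and HSP90B1, which was not called, with the strand sum (0.0017) and without F-78(WT) replicate 2 (0.018; without 1 sample it ranged from -0.035 to 0.018). In 474 a call was lost, in 15 one was gained and in 1253 neither changed. The causes were not tested. With 3 samples per group and a median biological variation of 11.2%, the spread limits which small changes can be called, most of all at low counts. No exact permutation test was run, since 3 samples against 3 cannot give a p below 0.10.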
